A study of Mus musculus with 2 samples.

Results

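Transcript levels of 33 B cell and plasma cell genes were examined in Gr-1+ CD11b+ cells, a population defined by 2 myeloid surface markers that neutrophils and many monocytes carry. The genes were chosen by symbol from a list of 9 genes of the B cell receptor and its signalling, 17 genes of the mature B cell and 7 genes of the plasma cell, and each of the 33 was found among the 24346 gene symbols measured. BALB/c mice given 3% dextran sulfate sodium (DSS), which causes colitis, for 6 days were the source of the cells. Both groups share this background, and the label gives no age, sex, genotype or number of animals. In 1 library the cells had been stimulated with ATPγS, an ATP analogue that resists hydrolysis and acts on nucleotide receptors, for 2.5 hours, and the other library, the control, came from cells stimulated without it. The concentration in the label is 100 µM, where the prefix is written as a Symbol font character. With 1 library per condition there is no replicate error and no p-value, and every difference below is between those libraries.

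The B cell antigen receptor is a membrane immunoglobulin that signals through the paired chains CD79A and CD79B, which pass the signal to kinases of the SRC and TEC families and to adaptor proteins, while co-receptors of the SIGLEC family and CD72 damp it. Mature B cells carry CD20, complement and IgE receptors and the receptor for the survival factor BAFF, and their identity is held by transcription factors such as PAX5 and EBF1. When a B cell becomes a plasma cell, BLIMP1 and XBP1 replace that programme with one for secretion, and the joining chain links the immunoglobulin units of IgA and IgM. In the inflamed gut both cell types gather in the lamina propria and in lymphoid follicles. Several of these genes, among them Btk, Blnk, Cd37, Cd38, Xbp1, Prdm1 and Pou2f2, are also known to be expressed by myeloid cells, so their level does not mark B cells alone.

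The deposited values are FPKM, fragments scaled by transcript length and by the mapped total, which allow levels to be compared between genes. The steps between low values put the depth at 2133000 fragments without ATPγS and 2848000 with it. Genes of olfactory and vomeronasal receptors, which serve smell and pheromone sensing, gave a background level: 1271 of them had a median of 1.98 FPKM in the control and 2.25 FPKM in the ATPγS library, and 95% lay below 16.1 and 15.8 FPKM. A gene below this bound is described by its value, but its level is not set apart from that background. Itgam, the gene of CD11b, stood at 112 and 144 FPKM in control and ATPγS, and 9 of 9 measured neutrophil markers lay above the bound in both libraries, whereas Ly6g was not analysed here.

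None of the 33 genes was listed at 0 in either library. Of these, 13 lay above the receptor gene bound in both libraries. In the B cell receptor group these were 5, Cd79a, Cd79b, Cd72, Btk and Blnk. In the mature B cell group they were 4, Ms4a1, Cd37, Cxcr5 and Pou2af1, and in the plasma cell group 4, Jchain, Mzb1, Xbp1 and Sdc1. Every other member, Fcer2a among them, lay under the bound in either or both libraries. Jchain, of the antibody joining chain, was by far the highest, at 929.9 FPKM in the control and 643 FPKM with ATPγS. Xbp1, Cd79a, Cd37 and Cd79b followed, between 83.1 and 133 FPKM. At the other end, Pax5 was listed at 0.364 and 1.36 FPKM and was the 1 member with a mean below 1 FPKM, so it is left out of the counts.

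**Figure D1:**
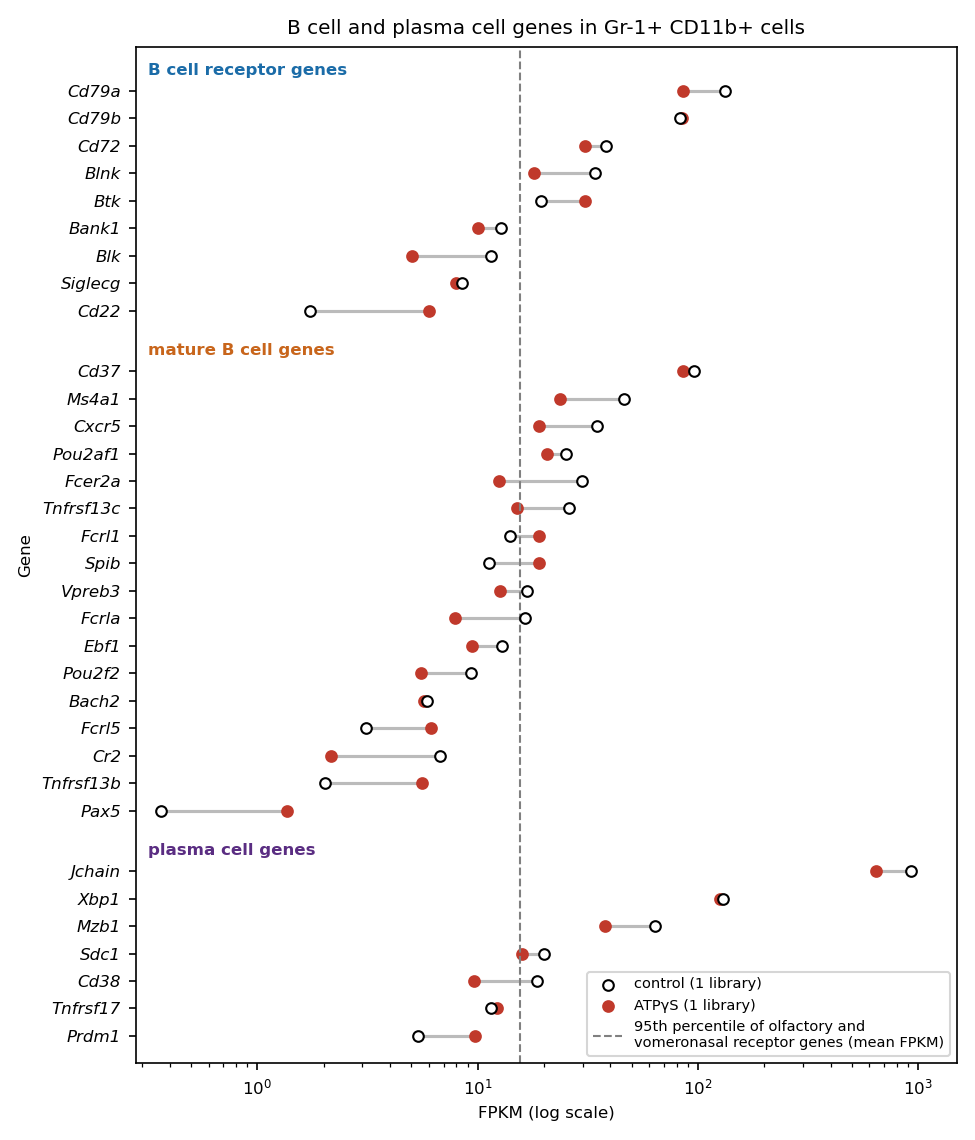
FPKM of each of the 33 genes on a log scale, with the control library as open circles and the ATPγS library as red circles (1 library each, so no error bars), ordered by mean level within each group. The dashed line is the 95th percentile of the mean FPKM of olfactory and vomeronasal receptor genes (15.5 FPKM), and Jchain stands at 929.9 and 643 FPKM while most genes of the mature B cell lie near or below the line.

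Between the libraries, most B cell and plasma cell genes were listed lower with ATPγS, few by as much as 2-fold. The summed level of the 33 genes was 1878 FPKM in the control and 1404 FPKM in the ATPγS library (ratio 0.748), and without Jchain it was 948.1 and 760.5 FPKM (ratio 0.802). On the scale log2((ATPγS FPKM + 1) / (control FPKM + 1)), 23 of the 32 genes with a mean of at least 1 FPKM lay below 0 and 9 above, with a median of -0.32, where 49.6% of all 18311 genes at that level lay below 0 and their median was 0.01. Genes with a mean of at least 10 FPKM had a median of -0.13, and when the ATPγS library was rescaled to bring that median to 0, 20 members lay below 0 with a median of -0.20. Of the 32 members, 2 were at least 2-fold higher, Cd22 and Tnfrsf13b, where 13.8% of all genes were, and 3 were at least 2-fold lower, Blk, Cr2 and Fcer2a, where 9.91% of all genes were. The share of members past 2-fold was thus 6.25% upward and 9.38% downward, no larger than in the whole table. With a pseudocount of 5 in place of 1, none of these 5 genes passed 2-fold, and Blk did not pass it after the rescaling. In bulk RNA a smaller number of B cells in the library and less of a transcript in each cell cannot be told apart.

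Fragments per gene were estimated from FPKM, transcript length and depth, and gave a 95% counting interval for each ratio of ATPγS to control FPKM. This interval covers counting error only, so an interval that leaves out 1 does not show an effect of ATPγS. For 890 receptor genes it lay wholly above 1 for 32% and wholly below 1 for 29.3%. Depth was read from the coding length of receptor genes, but fragments were counted over the full exon length. Where the exons extend past the coding part, this counts too many fragments and narrows the interval. How much of these shares comes from that was not tested. Among the 32 members, the interval lay below 1 for 14 and above 1 for 5, and it included 1 for 13. Across 17565 genes at the same minimum it lay below 1 for 24.4% and above 1 for 24%.

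The lower values were most frequent among the more abundant members. Of 14 members with a mean of at least 20 FPKM, 12 lay below 0 with a median log2 ratio of -0.58, where 60.7% of 3480 genes of that level lay below 0 with a median of -0.12. Of these 14, Fcer2a was the 1 at least 2-fold lower, where 5% of genes of that level were, and none was at least 2-fold higher, where 2.3% were. The interval lay below 1 for 8 of the 14, where it did for 40.2% of genes of that level, and above 1 for 1, Btk, where it did for 21.7%. Among 14 members between 5 and 20 FPKM the median was -0.32 with 10 below 0, where the median of all genes of that level was -0.06. Blk was the 1 at least 2-fold lower, where 11.2% were, and none was at least 2-fold higher, where 10.3% were. The 4 members between 1 and 5 FPKM were Cd22, Cr2, Fcrl5 and Tnfrsf13b, and 2 of them were at least 2-fold higher, where 21.2% of genes of that level were, and 1 at least 2-fold lower, where 10.9% were.

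**Figure D2:**
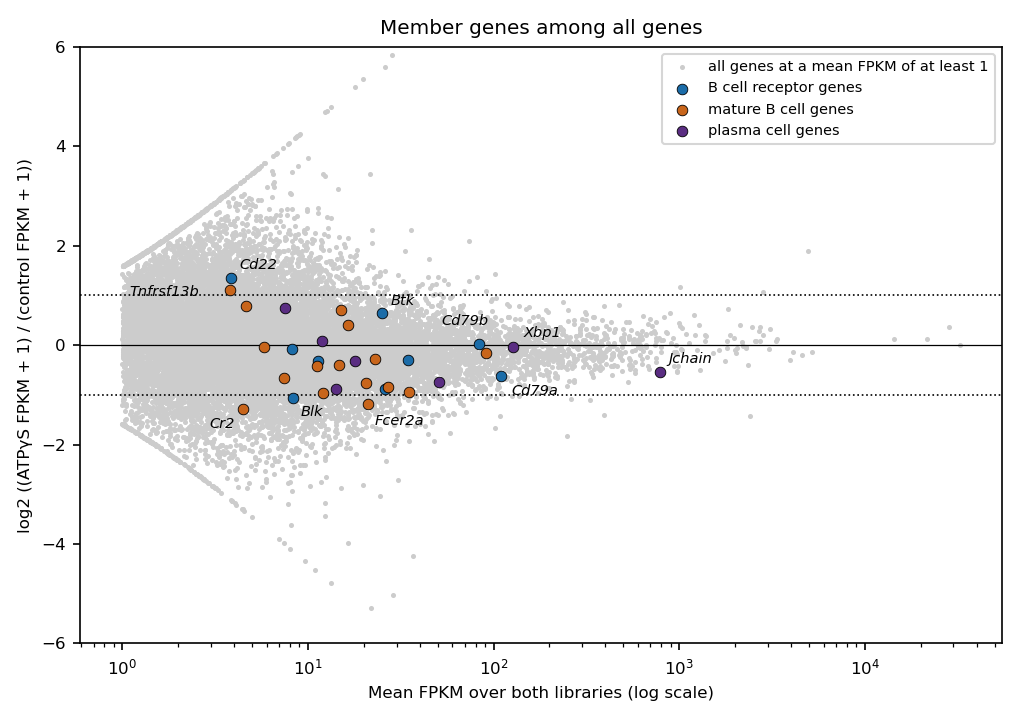
Mean FPKM over both libraries (log scale) against the log2 ratio of ATPγS to control with 1 added to each FPKM, for all 18311 genes with a mean of at least 1 FPKM (grey) and 32 members coloured by group; dotted lines mark 2-fold, and 37 genes beyond 6 on the log2 scale are outside the plotted range. Cd22 and Tnfrsf13b lie above the upper dotted line, Cr2, Blk and Fcer2a below the lower one, and the scatter of all genes narrows to the right, where Jchain lies.

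In the B cell receptor group, 1 of 9 genes was higher with ATPγS by at least 2-fold, 1 was lower by as much and 7 lay between these bounds, with a median log2 ratio of -0.31 and 6 of 9 below 0. Cd79a (chromosome 7, 24897381 to 24902197, GRCm38), of the signalling chain CD79A, stood at 133 FPKM in the control and 85.9 FPKM with ATPγS, from about 414 and 356 fragments. Its ratio was 0.644, with a counting interval of 0.557 to 0.744. Its partner Cd79b (chromosome 11, 106311341 to 106314762), whose protein pairs with CD79A, stood at 83.1 and 84.2 FPKM with a ratio of 1.01 (interval 0.857 to 1.19). The level of Cd79a over that of Cd79b was 1.60 in the control and 1.02 with ATPγS. The intervals of the 2 chains did not overlap, but they cover counting error only. Whether the chains differ beyond the scatter between libraries was not tested.

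Among the kinases and adaptors that carry the signal, Blk, a SRC family kinase, and Btk, a TEC family kinase, lay on opposite sides. Blk (chromosome 14, 63372836 to 63417037) stood at 11.5 FPKM in the control and 5.03 FPKM with ATPγS, a ratio of 0.437 (interval 0.274 to 0.677) from about 57 and 33 fragments. Btk (chromosome X, 134542336 to 134583570) stood at 19.3 and 30.7 FPKM, a ratio of 1.59 (interval 1.25 to 2.02). The adaptor gene Blnk, which links the kinase SYK to BTK and phospholipase C, stood at 34.0 and 17.98 FPKM, close to the 2-fold bound with a ratio of 0.529 (interval 0.408 to 0.680). Bank1, a scaffold of the same pathway, stood at 12.8 and 9.998 FPKM, and its interval (0.579 to 1.06) included 1. Of these 4 genes, Btk and Blnk lay above the receptor gene bound in both libraries.

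The inhibitory receptors of the group did not share a direction. Cd22 (chromosome 7, 30865402 to 30880342), a SIGLEC that recruits phosphatases to the receptor, was listed at 1.73 FPKM in the control and 5.996 FPKM with ATPγS, a ratio of 3.46 (interval 1.92 to 6.40) from about 15 and 68 fragments. Both values lie below the receptor gene bound, and Cd22 shares exon sequence with Gm29439 on the opposite strand, from which its reads cannot be told apart in a preparation that does not mark strand. Siglecg, another SIGLEC of B cells, stood at 8.45 and 7.99 FPKM with a ratio of 0.946 (interval 0.630 to 1.42), and its direction changed with the scaling. Cd72, a C-type lectin that inhibits the receptor, stood at 38.4 and 30.8 FPKM (interval of the ratio 0.624 to 1.04). Cd72, Cd37 and Bach2 likewise overlap genes on the opposite strand (Tesk1, Tead2 and Bach2os), and Mzb1 and Pou2f2 overlap SPATA24 and Mir6537 on the same strand, so part of their reads may belong to the other gene.

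The promoters of the members were searched for motifs of factors that are themselves members, to show the sequence beside their levels. RefSeq windows (GRCm38.p6) from 250 bases before to 50 after the start were found for 28 members, 32 windows in all. The octamer ATGCAAAT, searched on both strands and known as the site of OCT2 (gene Pou2f2) with its coactivator OBF1 (Pou2af1), occurred in 2 of the 32 windows, 6.25%, and in 1.74% of all 32851 windows. Those were Blnk, at position -130 from the start, and Vpreb3, at -45, both as the reverse complement ATTTGCAT. The palindromic site known for EBF1, TCCC and GGGA with 2 bases of any kind between them, occurred in 1 window (3.12%), that of Cd22 at -49, and in 0.904% of all windows. The ETS family motif GAGGAAGT, of the type that SPIB recognises, occurred in 3 windows (9.38%), those of Cd37, Cd72 and Fcrl1, and in 3.20% of all. A match is a description of letters in these windows and not of binding. The 250 bases before the start are given for the octamer and EBF1 matches, 5′ to 3′ on the strand of the gene, with the match in capitals, for Blnk (chr19:40994222-40994471, minus strand), Vpreb3 (chr10:75948050-75948299, plus strand) and Cd22 (chr7:30879029-30879278, minus strand).
Blnk: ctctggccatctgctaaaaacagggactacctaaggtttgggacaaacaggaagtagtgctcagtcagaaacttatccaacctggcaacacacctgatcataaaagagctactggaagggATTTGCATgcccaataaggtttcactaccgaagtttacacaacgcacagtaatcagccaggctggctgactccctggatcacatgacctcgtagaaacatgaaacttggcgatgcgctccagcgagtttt
Vpreb3: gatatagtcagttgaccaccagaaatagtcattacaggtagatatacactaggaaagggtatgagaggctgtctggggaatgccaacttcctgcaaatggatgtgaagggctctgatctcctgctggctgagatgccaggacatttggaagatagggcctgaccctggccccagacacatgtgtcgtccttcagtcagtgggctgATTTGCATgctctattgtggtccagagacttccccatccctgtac
Cd22: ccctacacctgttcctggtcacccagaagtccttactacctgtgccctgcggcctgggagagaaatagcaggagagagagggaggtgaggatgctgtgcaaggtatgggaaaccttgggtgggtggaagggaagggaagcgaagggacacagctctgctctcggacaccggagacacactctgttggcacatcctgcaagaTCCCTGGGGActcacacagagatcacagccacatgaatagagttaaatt

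**Figure D3:**
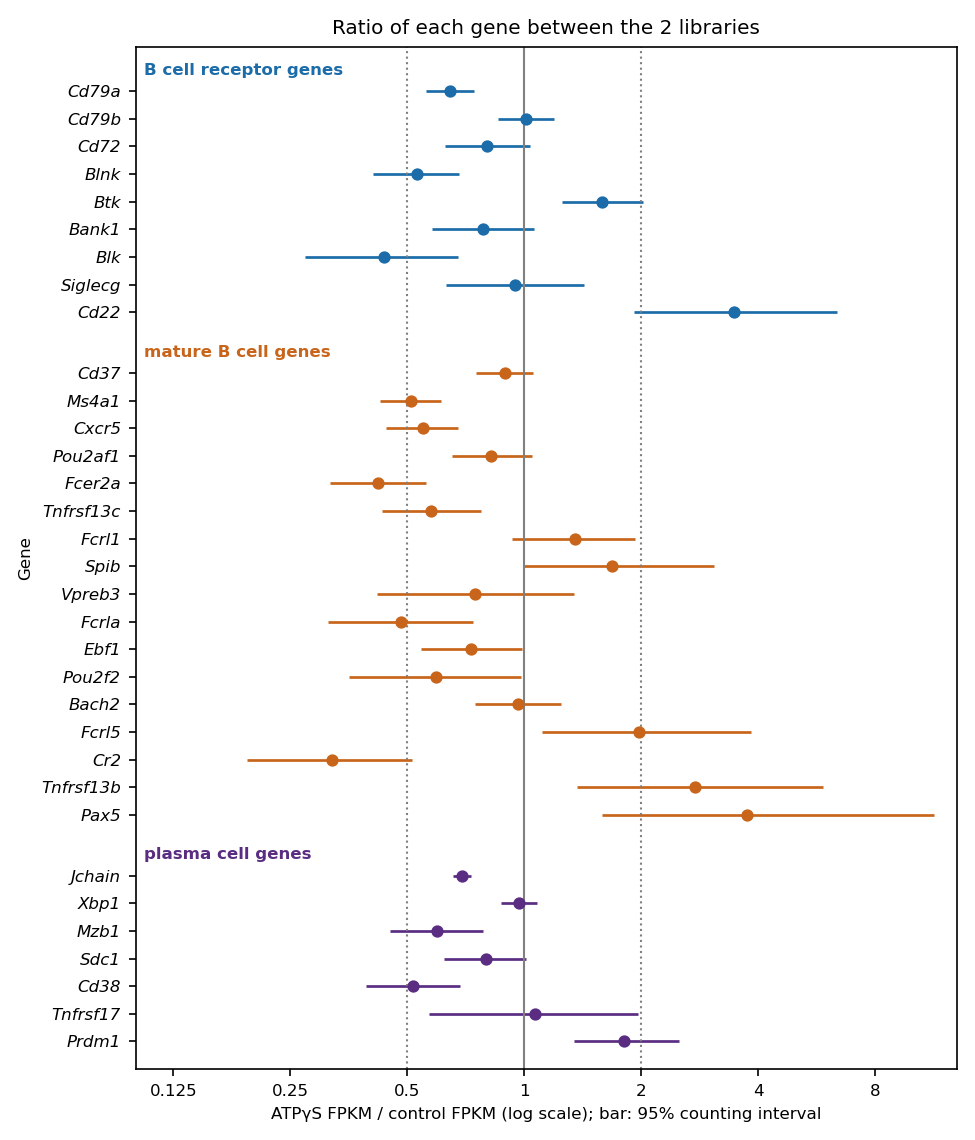
Ratio of ATPγS to control FPKM of each of the 33 genes (points, log scale) with its 95% counting interval (bars), grouped as in the plot of levels; the solid line marks 1 and the dotted lines 0.5 and 2. Intervals are narrow for Jchain (0.655 to 0.730) and wide for Pax5 (1.59 to 11.3), and they hold no error between replicates.

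In the mature B cell group, 16 of 17 genes reached a mean of 1 FPKM, of which 1 was higher with ATPγS by at least 2-fold, 2 were lower by as much and 13 were inside these bounds. The median log2 ratio was -0.40, with 12 of 16 below 0. Both genes at least 2-fold lower, Fcer2a and Cr2, encode surface receptors of mature B cells. Fcer2a (chromosome 8, 3681737 to 3694175), of the low affinity IgE receptor CD23, stood at 29.8 FPKM in the control and 12.5 FPKM with ATPγS, a ratio of 0.421 (interval 0.317 to 0.559) from about 142 and 80 fragments. Its ATPγS value lay below the receptor gene bound. Cr2 (chromosome 1, 195136811 to 195176716), of the complement receptor CD21, stood at 6.76 and 2.17 FPKM, a ratio of 0.321 (interval 0.194 to 0.513), with both values below the receptor gene bound. Ms4a1 (chromosome 19, 11249675 to 11266241), of CD20, stood at 46.1 and 23.7 FPKM, a ratio of 0.513 (interval 0.427 to 0.613), just short of 2-fold.

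The chemokine receptor and the BAFF receptor were listed lower as well. Cxcr5, whose protein guides B cells into follicles, stood at 34.8 FPKM in the control and 19.1 FPKM with ATPγS, a ratio of 0.548 (interval 0.441 to 0.676), and overlaps Bcl9l on the opposite strand. Tnfrsf13c, of the BAFF receptor, stood at 26.1 and 15.0 FPKM, a ratio of 0.577 (interval 0.431 to 0.775). Tnfrsf13b (chromosome 11, 61126755 to 61149372), of TACI, a receptor for BAFF and APRIL, was on the other side at 2.03 and 5.56 FPKM, a ratio of 2.74 (interval 1.37 to 5.89) from about 11 and 40 fragments. The level of Tnfrsf13c over that of Tnfrsf13b was thus 12.9 in the control and 2.71 with ATPγS, with the Tnfrsf13b values both under the receptor gene bound. Cd37, a tetraspanin of B cells and myeloid cells, stood at 95.6 and 85.4 FPKM, and its interval (0.753 to 1.05) included 1.

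The Fc receptor-like genes split. Fcrla, which encodes an intracellular member of that family, stood at 16.4 FPKM in the control and 7.88 FPKM with ATPγS (ratio 0.481, interval 0.312 to 0.737). Its log2 ratio of -0.97 with 1 added to each FPKM lay just inside the 2-fold bound, beyond which it passed with a pseudocount of 0.1. Fcrl1, of an activating surface receptor, stood at 14.1 and 18.99 FPKM (interval 0.933 to 1.92). Fcrl5, of a receptor of marginal zone B cells and plasma cells, stood at 3.11 and 6.12 FPKM (ratio 1.97, interval 1.11 to 3.83). Vpreb3, of a chaperone-like protein of the B cell receptor chains, stood at 16.8 and 12.6 FPKM from about 26 and 26 fragments, with an interval of 0.418 to 1.34.

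None of the 5 transcription factor and coactivator genes at a mean of 1 FPKM or more, besides Pax5 below it, reached 2-fold. Ebf1, of a factor that specifies the B lineage, stood at 12.9 FPKM in the control and 9.41 FPKM with ATPγS (ratio 0.729, interval 0.544 to 0.988). Pou2f2, of OCT2, stood at 9.30 and 5.53 FPKM (interval 0.354 to 0.980), and Pou2af1, of its coactivator, stood at 25.1 and 20.6 FPKM (interval 0.651 to 1.05). Bach2, of a repressor that holds back plasma cell differentiation, stood at 5.90 and 5.69 FPKM, and its direction changed with the scaling. Spib, of an ETS factor of B cells and plasmacytoid dendritic cells, was listed higher at 11.3 and 18.9 FPKM (interval 0.999 to 3.07). Pax5, of the factor that keeps B cell identity, came from about 6 and 31 fragments, both values being under the receptor gene bound, and overlaps 5730488B01Rik and Gm12462 on the opposite strand.

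Of the 7 plasma cell genes, 0 were at least 2-fold higher or lower, and 5 lay below 0 with a median log2 ratio of -0.31. Jchain (chromosome 5, 88519809 to 88527891) had a ratio of 0.692 with the narrowest interval of the members, 0.655 to 0.730, from about 2763 and 2552 fragments. Mzb1 (chromosome 18, 35647267 to 35649367), of an endoplasmic reticulum protein that aids antibody assembly, stood at 63.8 FPKM in the control and 38.0 FPKM with ATPγS, a ratio of 0.595 (interval 0.453 to 0.784). The level of Jchain over that of Cd79a was 6.98 in the control and 7.49 with ATPγS, so the most abundant plasma cell gene and the most abundant B cell receptor gene were listed lower by a similar factor.

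The regulators of the plasma cell did not share that direction. Xbp1 (chromosome 11, 5520659 to 5525893), of the factor that expands the secretory apparatus, stood at 130.0 FPKM in the control and 126 FPKM with ATPγS, a ratio of 0.969 (interval 0.870 to 1.08), and its direction changed with the scaling. Prdm1, of BLIMP1, was listed higher at 5.36 and 9.71 FPKM, a ratio of 1.81 (interval 1.34 to 2.50), with both values below the receptor gene bound. For the surface proteins, Cd38, of an ectoenzyme that consumes NAD, stood at 18.6 and 9.64 FPKM (ratio 0.518, interval 0.392 to 0.684). Sdc1, of the plasma cell marker CD138, stood at 19.98 and 15.9 FPKM (interval 0.623 to 1.01), and Tnfrsf17, of the APRIL receptor BCMA, stood at 11.5 and 12.2 FPKM (interval 0.570 to 1.96). Without Jchain, the summed level of the plasma cell group was 249 and 211 FPKM, a ratio of 0.848.

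Further genes of the same pathways had medians closer to 0. Beside their counts at 2-fold, 13.8% of all genes at a mean of at least 1 FPKM were higher and 9.91% lower by that factor. Of 20 other genes of B cell receptor signalling, 0 were at least 2-fold higher and 1 was at least 2-fold lower, with 14 below 0 and a median log2 ratio of -0.15. The 1 was Plcg2, of the phospholipase that BLNK and BTK activate, at 25.8 FPKM in the control and 7.23 FPKM with ATPγS (ratio 0.280, interval 0.216 to 0.358). Pik3cd, of a phosphoinositide kinase subunit, stood at 33.6 and 21.3 FPKM and Dapp1, of an adaptor that binds its product, at 34.5 and 21.2 FPKM. The most abundant of this list were Ptpn6, of the phosphatase SHP1 (466 and 418 FPKM), and Pik3ap1, of the adaptor BCAP (209 and 293 FPKM), both of which myeloid cells use.

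Among 21 other genes of the mature B cell, 1 was at least 2-fold higher and 2 were at least 2-fold lower, with a median of -0.15. Over all genes at a mean of at least 1 FPKM, 13.8% were higher and 9.91% lower by that factor. Stap1, of an adaptor of B cell signalling, stood at 57.7 FPKM in the control and 22.0 FPKM with ATPγS, and Fcmr, of the IgM Fc receptor, at 40.2 and 15.9 FPKM. Hvcn1, of a proton channel, was the 1 higher at 3.86 and 8.99 FPKM. Cd24a (343 and 350.1 FPKM) and Cd83 (213 and 141 FPKM), which many leukocytes express, were the most abundant, and H2-Oa stood at 2.60 and 0.973 FPKM (interval 0.061 to 1.75). Of 22 genes of the secretory apparatus of plasma cells, none was higher by at least 2-fold and 1 was lower by as much, with a median of -0.07 that turned to 0.06 after the rescaling to a median of 0. That gene was Fkbp11, of a folding enzyme, which was listed at 2.08 FPKM in the control and at 0 with ATPγS. The chaperone gene Hspa5 stood at 725 and 768 FPKM and Herpud1 at 216 and 196 FPKM, Creld2 at 69.5 and 43.8 FPKM, and Fkbp2 (20.9 and 42.3 FPKM) and Edem1 (24.5 and 37.4 FPKM) were listed higher. Genes of immunoglobulin constant regions were not analysed here.

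Marker lists of T and NK cells and of plasmacytoid dendritic cells also had medians below 0. For the counts at 2-fold in these lists, the shares over all genes at a mean of at least 1 FPKM were 13.8% higher and 9.91% lower. Between 1 and 5 FPKM, where some of these markers lie, they were 21.2% higher and 10.9% lower. Among the 16 markers of T and NK cells, the ATPγS library was at least 2-fold lower for 7 and higher by that factor for 2, with a median of -0.51 and a summed level of 359.6 and 205 FPKM, and Cd5 was listed at 0 in the ATPγS library. Of 8 plasmacytoid dendritic cell markers at a mean of 1 FPKM or more, 1 was lower by at least 2-fold and 0 were higher by as much, with a median of -0.53 and a summed level of all 10 of 187 and 132 FPKM. Of these 10, Cox6a2 and Cd300c were listed at 0 in the ATPγS library, and Ly6d also belongs to the list of other mature B cell genes. The 9 neutrophil markers had a median of 0.12 and a summed level of 37854 and 41028 FPKM, and the 12 monocyte and macrophage markers a median of 0.09 and a summed level of 3780 and 4177 FPKM, with C1qc at least 2-fold higher. The part of the cell makeup of the libraries in the values of the B cell and plasma cell genes was not tested.

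**Figure D4:**
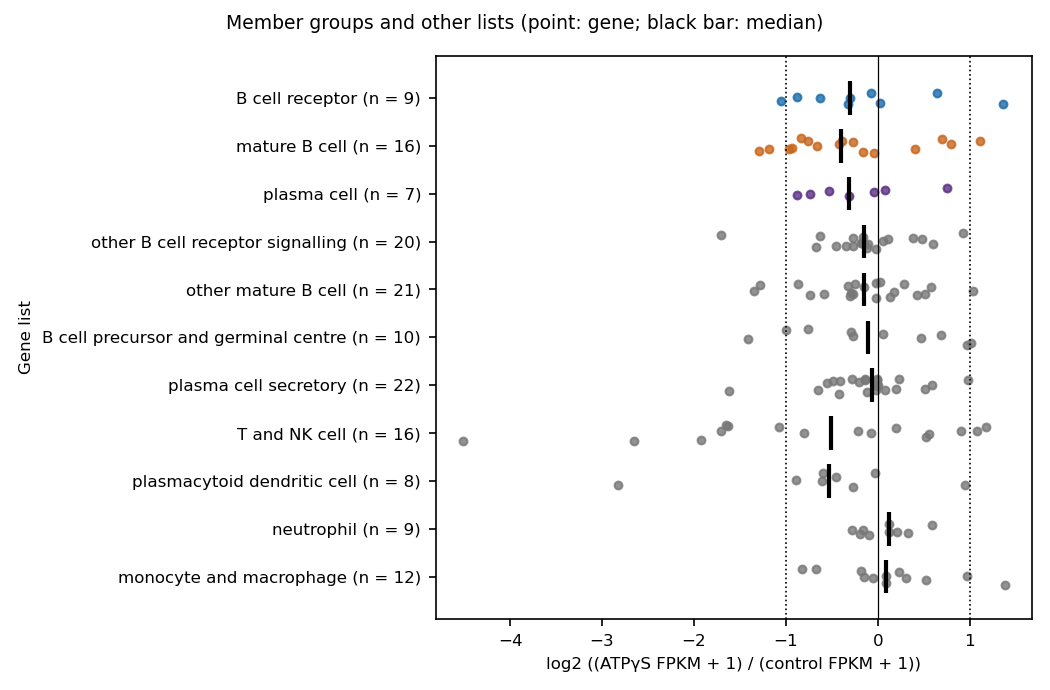
Log2 ratio of ATPγS to control with 1 added to each FPKM for each gene with a mean of at least 1 FPKM (points) and the median (black bars), for the 3 member groups (coloured) and 8 further lists (grey); dotted lines mark 2-fold. The medians of the member groups lie between -0.40 and -0.31, those of the T and NK cell and plasmacytoid dendritic cell markers at -0.51 and -0.53, and those of the neutrophil and the monocyte and macrophage markers at 0.12 and 0.09.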

How the data were processed

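RNA of 1 control and 1 ATPγS library was extracted with an RNeasy kit, turned into full-length cDNA with SMART-Seq HT and prepared with a Nextera kit, which does not mark strand, per the labels' protocols. The submitters' processing notes name the build mm10, Cufflinks 2.2.1, Bowtie2 2.2.3, TopHat2 2.0.13 and SAMtools 0.1.19. Neither options nor an annotation is named there. The deposited values are FPKM computed by the authors, with 1 value per symbol and no unit in the file header.

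From these, log2((ATPγS FPKM + 1) / (control FPKM + 1)) was computed, which shrinks the difference of low genes. Those with a mean of at least 1 FPKM were counted at 2-fold on this scale, and ratios printed with a gene carry no pseudocount. Without replicates no test was run. Depth was read from 1271 olfactory and vomeronasal receptor genes with 1 coding exon: at the total chosen, 71.7% (control) and 71.3% (ATPγS) of values under 10 fragments came out whole within 0.05, where even spacing would give 10%. That step used the coding length of these genes. Fragments per gene used the full exon length of the GENCODE M21 (GRCm38) transcript with the longest coding sequence, found for 95.7% of symbols. They are approximate, and may be too many for receptor genes with exon sequence outside the coding part. Ratios have 95% exact binomial (Clopper-Pearson) intervals, which cover counting error only, since PCR copies cannot be told from molecules. The steps were tested on simulated data whose only error was counting error, drawn with the same transcript lengths. Such data cannot show how the steps do under PCR copies or differences between libraries. Python 3.11.15, NumPy 2.4.6, SciPy 1.17.1 and pandas 2.3.3 were used.

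The members and lists were chosen with earlier results of these data known. Every member is described. From the other lists of B lineage genes, the 2 most abundant and the 4 with the largest absolute log2 ratio are named, of which some are not reported here, and the lists of other cell types are given by their counts and sums, with genes at 0. Immunoglobulin constant region genes were not analysed here. Alternatives were pseudocounts of 0.1 and 5, 2 rescalings, no filter or a mean of at least 5 FPKM, thresholds of 1.5-fold and 3-fold, and means in place of medians. A minimum at the 95th percentile of receptor genes, and leaving out 7 members that myeloid cells express, were added after seeing the data.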

Additional observations from a re-analysis of the deposited data

How the results depend on the processing

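The medians of the 3 groups and of all members stayed below 0 under every alternative run. Rescaling to a median of 0 at a mean of at least 10 FPKM added 0.13 to the median log2 ratio of those genes, and brought the median of the B cell receptor group to -0.18, of the mature B cell group to -0.28, of the plasma cell group to -0.19 and of all members to -0.20. It left 0 B cell receptor genes at least 2-fold lower, since Blk then lay inside the bound. The mean of the B cell receptor group was -0.14. A minimum at the 95th percentile of receptor genes gave medians of -0.76 (mature B cell), -0.42 (plasma cell) and -0.42 (all members), and without the members that myeloid cells express the plasma cell median was -0.42. Leaving out Jchain alone brought the plasma cell median to -0.18, with 4 of 6 genes below 0.

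Counts at 2-fold depended on low genes. A pseudocount of 5 or a threshold of 3-fold left 0 members higher and 0 lower, in the B cell receptor group, the mature B cell group and over all members. A mean of at least 5 FPKM left 0 higher in each of these, with 1 B cell receptor gene, 1 mature B cell gene and 2 members in all lower. The receptor gene percentile left 0 higher in each, and 0 B cell receptor genes, 1 mature B cell gene and 1 member in all lower. A threshold of 1.5-fold gave 6 higher and 12 lower over all members, 2 and 3 in the B cell receptor group, 3 and 7 in the mature B cell group and 1 and 2 in the plasma cell group. The share of all genes past 1.5-fold was not counted, so these numbers have no background beside them.

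Of the 33 members, 30 kept the sign of their log2 ratio under both pseudocounts and both rescalings, and Siglecg, Bach2 and Xbp1 did not. No paired analysis was possible because each group holds 1 library. With about 2133000 and 2848000 fragments, low members such as Tnfrsf13b rest on about 11 and 40 fragments, and no alternative supplies the missing replicate error.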

Other observations

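Genes of B cell precursors and of the germinal centre were also measured. Of 10 with a mean of at least 1 FPKM, 5 lay on each side of 0, and the median log2 ratio was -0.11, which turned to 0.01 after rescaling to a median of 0. Igll1, of a surrogate light chain of pre-B cells, stood at 2.76 FPKM in the control and 6.61 FPKM with ATPγS from about 5 and 16 fragments, and its interval (0.839 to 8.36) included 1. Il7r, of the interleukin 7 receptor of lymphocytes and their precursors, stood at 31.6 and 15.4 FPKM (interval 0.394 to 0.597), and S1pr2, of a sphingosine phosphate receptor of germinal centre B cells and other leukocytes, at 16.8 and 33.9 FPKM (interval 1.73 to 2.35). Bcl6, of the germinal centre repressor that myeloid cells also express, was the most abundant at 35.7 and 29.5 FPKM, and Vpreb2 was listed at 0 in both libraries.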
